A study of Homo sapiens with 12 samples.

Results

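The 3 empty-vector control libraries of HEK293T cells, control_1, control_2 and control_3, were chosen by their labels out of the 12 samples of the series, and every gene in their table was described by its level, its biotype and its family. No comparison with the other samples was made. HEK293T is a line derived from human embryonic kidney that carries adenovirus E1 sequences and the SV40 large T antigen. The controls were labelled wild type and had been transfected with empty pcDNA3.1, a mammalian expression plasmid, using Lipofectamine 2000, in DMEM with fetal bovine serum. The remaining samples received plasmids for VGLL2-NCOA2, TEAD1-NCOA2 or YAP5SA. The study's methods state triplicates that were processed independently, without saying whether each was a separate transfection, so the SDs given here measure the spread between libraries, which may in part be technical.

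HEK293T cells are a standard host for transfection and for producing virus, because they take up DNA readily and replicate plasmids that hold the SV40 origin. Large T antigen binds the RB proteins, and the cells divide without the usual restraint on the G1 to S transition. Although the line comes from kidney, its lineage has long been discussed, since it expresses genes of neurons and of the neural crest beside genes of kidney and epithelium. RNA-seq levels for such a host show which receptors, enzymes and transcription factors an introduced protein meets.

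The values were FPKM, fragments per kilobase of merged exon divided by a scale for each library, which is not stated. Levels of different genes are compared per length of all their annotated exons merged. That length can exceed the length of the transcript present, so orders between genes are approximate. Within a library every value multiplied by gene length was a whole multiple of 1 smallest step, taken as 1 fragment, and this gave 14345840 to 15105367 counted fragments per library. A gene of 1 kb listed at 0 could still have held up to 3 fragments, which is 0.223 to 0.240 FPKM, for counting error only. A gene was called expressed at 1 FPKM or more in each of the 3 libraries. Library 3 stood apart: Pearson's r of log2(FPKM + 1) over 13834 genes was 0.983 between libraries 1 and 2 and 0.919 and 0.924 between library 3 and these, a description across genes, which are not replicates.

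Of 58735 genes, 12257 were expressed (20.9%), and of 19951 protein-coding genes, 10793 were (54.1%). The latter share is the background for every list and family below. At a stricter level, 4108 protein-coding genes were at 10 FPKM or more in each library (20.6%), 289 at 100 or more and 18 at 1000 or more, whereas 3885 were listed at 0 in all 3 libraries. The median over all protein-coding genes was 1.90 FPKM, and over those expressed it was 7.96 FPKM. Protein-coding genes held 84.3% ± 1.93 (SD, n = 3) of summed FPKM. The 100 most abundant genes held 47.3% of it. They comprised 81 protein-coding genes, of which 43 encoded ribosomal proteins, together with 11 pseudogenes. Among these 100 genes, 20 lay on the mitochondrial chromosome.

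The mitochondrial chromosome was a large source of summed FPKM. Its genes made up 31.5%, 34.6% and 29.2% of summed FPKM in libraries 1 to 3, but 11.1% ± 1.35 (SD, n = 3) of fragments, since these genes are short. All 13 of its protein-coding genes were expressed and together held 23.3% ± 3.88 of summed FPKM. MT-CO1, the catalytic subunit of cytochrome c oxidase, was at 21017, 25083 and 14413 FPKM, the highest level of any protein-coding gene. MT-CO2 and MT-CO3, subunits of the same enzyme, had means of 11691 ± 5119 and 11208 ± 2747 FPKM. Library 3 was the lowest for each of these genes. MT-ND5, a subunit of complex I, was the opposite, at 2923, 3341 and 4148 FPKM, with library 3 the highest. MT-RNR2, the large ribosomal RNA of the mitochondrion, had a mean of 17257 ± 2410 FPKM.

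Genes of cytoplasmic protein synthesis were also abundant. Of 53 large-subunit ribosomal protein genes, 51 were expressed, with a median of 345 FPKM, and of 34 small-subunit genes, 32, with a median of 330.0 FPKM. The subunits held 5.65% ± 0.616 and 4.14% ± 0.571 of summed FPKM. RPS2 was the most abundant, at 3271, 4040 and 2039 FPKM, followed by RPL8, at 1749, 1995 and 962 FPKM, and RPL13A, at 1591, 1874 and 1063 FPKM. Library 3 was the lowest for all 3 genes. EEF1A1, which carries aminoacyl-tRNA to the ribosome, was at 2333, 2631 and 2275 FPKM, and EEF2, which drives translocation, at 2300, 2482 and 2094 FPKM, ranges that overlapped. All 18 cytoplasmic aminoacyl-tRNA synthetase genes matched by name were expressed (median 70.4 FPKM), and AARS, the alanyl enzyme, was the highest with a mean of 165 ± 17.6 FPKM.

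Outside ribosomal proteins and the mitochondrial chromosome, the most abundant protein-coding genes had varied roles. After EEF1A1 and EEF2 came the cytoplasmic actin ACTG1, at 1396 ± 139 FPKM, and YBX1, which binds mRNA, at 895 ± 204 FPKM. GAPDH and ENO1, of glycolysis, had means of 890 ± 124 and 677 ± 75.3 FPKM. CKB, the brain-type creatine kinase, which buffers ATP, was at 798, 995 and 672 FPKM. The chaperone HSP90AB1 and the nucleolar protein NPM1 were among the steadiest in FPKM, at 710 ± 22.8 and 698 ± 31.2. Summed FPKM was itself 389602, 450095 and 352968 in libraries 1 to 3, so which genes look steady depends on the scaling. The other members of the leading 25 were SLC25A5, FTL, RACK1, TUBB, SLC25A6, HNRNPA1, ATP5F1B, ATF4, CHCHD2, PABPC1, JUN, ARF1, H1FX, SRP9, EIF4EBP1 and RHOA, between 339 and 787 FPKM on average. The spread between libraries was wide for H1FX, a linker histone, at 372, 476 and 241 FPKM, and for EIF4EBP1, a repressor of cap-dependent translation, at 392, 467 and 197 FPKM, each lowest in library 3.

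**Figure D1:**
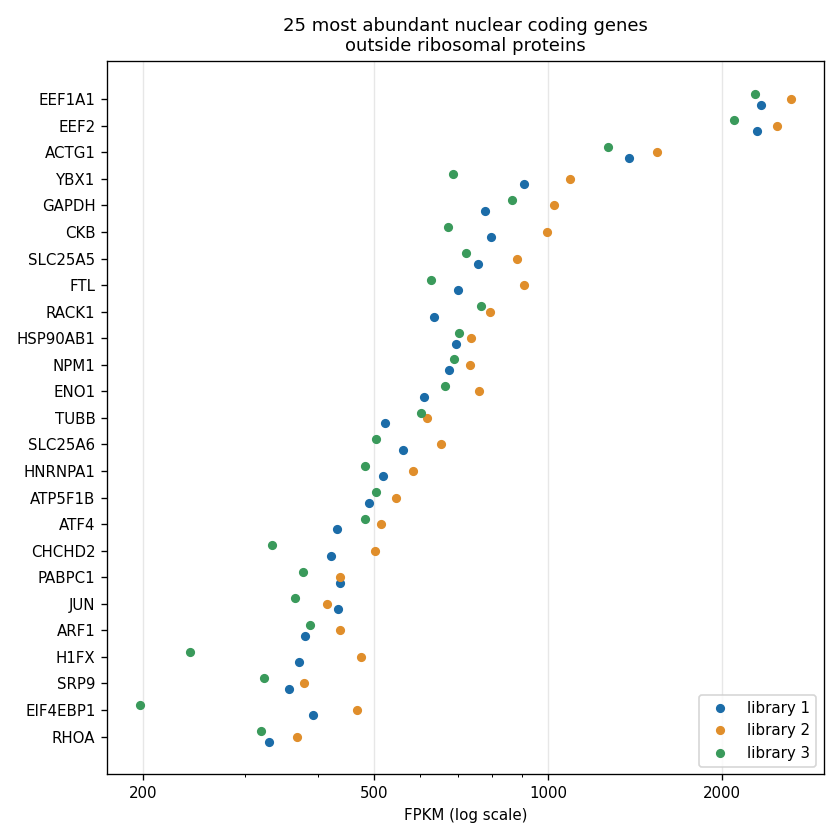
FPKM (log axis) of the 25 protein-coding genes with the highest mean outside ribosomal proteins and the mitochondrial chromosome; each point is 1 of the 3 control libraries. Levels run from EEF1A1, with a mean of 2413 FPKM, down to RHOA, at 339 FPKM, and library 3 lies lowest for H1FX and EIF4EBP1.

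The share of protein-coding genes expressed differed with the exon bases they share with other genes, and the cause was not tested. Protein-coding genes whose exons lie mostly within exons of other genes were seldom expressed: 0 of 525 with over 90% of exon bases shared on either strand, 5.31% of 207 with 75 to 90% shared and 26.9% of 401 with 50 to 75%, beside 50.5% of 11097 that shared none. Below 90% the shares differed by strand: where 50 to 75% was shared on the opposite strand and under 10% on the gene's own, 45.0% of 100 genes were expressed, against 15.7% of 216 in the reverse case, and at 75 to 90% the shares were 29.6% of 27 and 1.35% of 148. Over 90%, 0 of 25 and 0 of 425 were expressed. EEF1G, a subunit of the elongation factor complex that cells use throughout, was listed at 0 in all 3 libraries and shared 99.9% of its exon bases with genes on its own strand (chr11:62559601-62574086, minus strand, GRCh38). AP002990.1, a protein-coding gene that spans it (chr11:62559603-62591531), was itself at 0.729, 0.461 and 0.201 FPKM. A value of 0 was therefore read as listed at 0 and not as absence. Of the 1110 distinct genes in the lists below, 2 shared over 90% of their exon bases and 29 over 50%.

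**Figure D2:**
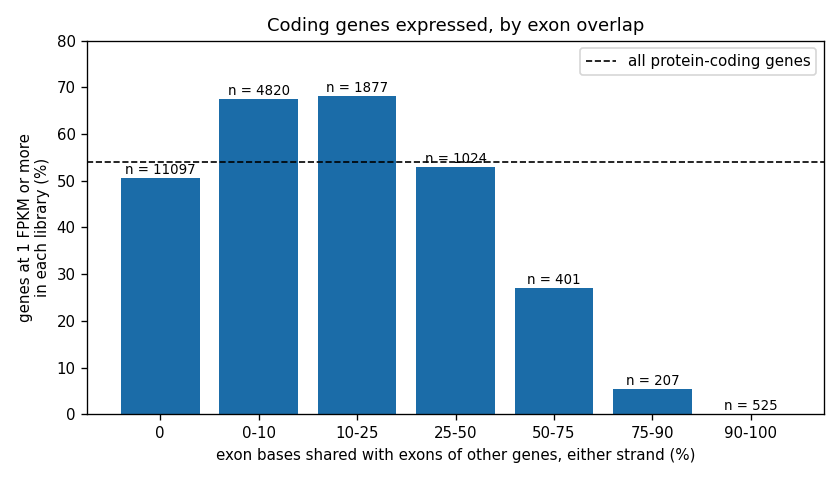
Share of protein-coding genes at 1 FPKM or more in each of the 3 control libraries (bars, %), by the percent of their exon bases that lie in exons of other genes on either strand; the dashed line is the share over all protein-coding genes, 54.1%, and n is the number of genes. The bars fall from 68.1% at 10 to 25% shared to 0 at over 90%.

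The lists covered lineage markers, receptors and channels, metabolism and constitutive machinery, and 530 of their 1110 distinct members were expressed. Lists of metabolism and machinery mostly lay above the 54.1% of all protein-coding genes. Lists of differentiated tissues and of G protein-coupled receptors (GPCRs) lay well below it. The shares are descriptions of lists of genes chosen with earlier results of these data known, with no test. For list members listed at 0 in all libraries, the level that 3 fragments would give ran from 0.00774 to 0.280 FPKM with gene length.

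**Figure D3:**
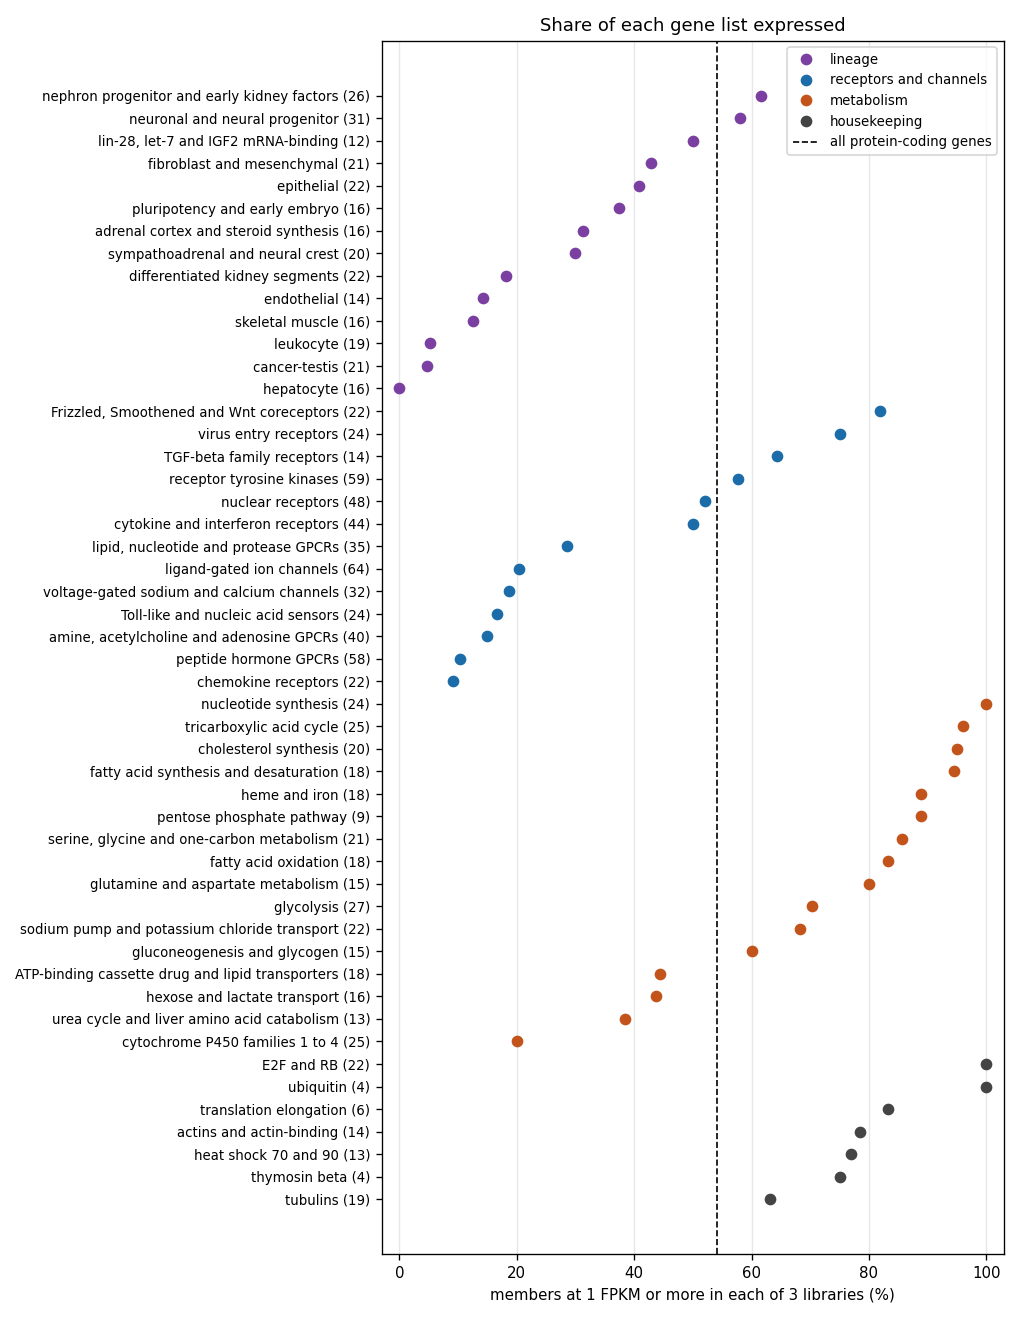
Share of each gene list's members at 1 FPKM or more in each of the 3 control libraries (points, %, coloured by class), with the number of members measured in brackets; the dashed line marks all protein-coding genes, 54.1%. E2F and RB, nucleotide synthesis and ubiquitin genes are at 100%, and hepatocyte markers at 0.

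Transcription factors of the early kidney were expressed, and markers of the mature nephron mostly were not. Of 26 nephron progenitor and early kidney genes, 16 were expressed, with a median of 1.95 FPKM. SIX2, which keeps nephron progenitors undifferentiated, was the highest, at 21.8, 25.7 and 23.4 FPKM. FOXD1, the marker of the renal stroma, was at 19.6, 19.8 and 19.3 FPKM, below SIX2 in every library. HOXA11, a patterning factor of the metanephros, was at 13.5, 15.9 and 14.4 FPKM, below FOXD1 in every library. Lower members were HOXD11, at 6.77 ± 0.947 FPKM, SALL1, at 6.32 ± 1.28, CITED1, at 3.22 ± 0.0807, and PAX2, at 1.62, 2.05 and 2.26 FPKM. GATA3, which acts in the nephric duct, was at 4.56, 5.60 and 18.0 FPKM, so that its place in the order rested on library 3.

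Under 1 FPKM in all 3 libraries were 7 of the 26, among them GDNF, HNF4A, OSR1, PAX8 and WNT9B. PAX8, the renal epithelial factor, was listed at 0 throughout, which for its length allows at most 0.0324 FPKM. HNF4A, of the proximal tubule, was at 0.0102 FPKM in library 1 and listed at 0 in the others. Among genes of differentiated kidney segments, 4 of 22 were expressed: PODXL, of the podocyte surface, at 6.24 ± 1.30 FPKM, AQP3, a water channel of the collecting duct, at 2.65 ± 0.342, LRP2, the endocytic receptor megalin, at 2.17 ± 0.0727, and SYNPO, an actin-binding protein of podocytes, at 1.82 ± 0.149. The other 18, among them UMOD, NPHS1, SLC12A1, SLC12A3, SLC34A1 and AQP2, were under 1 FPKM in all libraries.

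Markers of the adrenal gland and of sympathetic cells gave a similar split. In the adrenal cortex and steroid synthesis list, 5 of 16 were expressed, and these were AKR1B1, at 73.0 ± 18.1 FPKM, FDXR, at 29.5 ± 2.99, FDX1, at 18.1 ± 1.38, POR, at 13.7 ± 0.50, and SCARB1, at 12 ± 1.71. They encode an aldose reductase, electron carriers and a lipoprotein receptor, which many tissues use. The factors that define the steroidogenic cell were low: NR5A1, its master regulator, was at 0.760, 0.513 and 0.414 FPKM, STAR, which moves cholesterol into mitochondria, was at 0.0424 FPKM in library 2 and listed at 0 in the other libraries, and CYP11B1, CYP11B2, CYP21A2, HSD3B1, MC2R and NR0B1 were listed at 0 in all. Of 20 sympathoadrenal and neural crest genes, 6 were expressed. HAND1, a bHLH factor, was at 37.5, 34.3 and 46.2 FPKM, FOXD3, which marks neural crest, at 11.9 ± 2.32, GATA2 at 11.1 ± 1.40, TFAP2A at 6.28 ± 0.658, ISL1 at 5.63 ± 0.631 and ERBB3, a neuregulin receptor, at 1.51, 1.29 and 3.48 FPKM. TH, the rate-limiting enzyme of catecholamine synthesis, was listed at 0 in all 3 libraries, with a limit of 0.0739 FPKM.

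Neuronal and neural progenitor genes were expressed about as often as protein-coding genes in general, 18 of 31, with a median of 3.11 FPKM. UCHL1, a ubiquitin hydrolase abundant in neurons, was at 87.0, 106 and 94.0 FPKM. The neurofilament genes NEFM and NEFL were at 84.7, 88.4 and 111 FPKM and at 42.1, 44.4 and 48.3 FPKM, every NEFM value being above every NEFL value. STMN1, which destabilizes microtubules, was at 60.1 ± 8.14 FPKM, SOX4, a progenitor factor, at 52.0, 48.6 and 89.9 FPKM, and NES, the progenitor intermediate filament nestin, at 5.87 ± 0.652 FPKM. Genes of differentiating neurons lay on both sides of the threshold. STMN3, a relative of STMN1, was at 18.8, 24.8 and 17.8 FPKM, INA, an intermediate filament, at 10.3 ± 0.743, SYP, of synaptic vesicles, at 5.14 ± 0.839, and MAPT, the microtubule protein tau, at 4.95 ± 0.0857, and ELAVL2, GAP43 and SYT1 were also expressed. Under 1 FPKM in every library were others: DCX was listed at 0, MAP2 was at 0.113 ± 0.0339 FPKM, and SNAP25, ELAVL3, ELAVL4, NEFH and SOX11 were also below 1. TUBB3 was at 0.117, 0.0721 and 0.454 FPKM, with 35.8% of its exon bases shared with other genes.

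Some epithelial and some mesenchymal markers were expressed, but both lists lay below the 54.1% of all protein-coding genes. Of 22 epithelial genes, 9 were expressed (40.9%), with KRT18 at 28.7, 37.5 and 32.6 FPKM and its partner KRT8 at 11.7, 14.8 and 13.4 FPKM. Among all 55 keratin genes KRT18, KRT8 and KRT10 were the only ones expressed. JUP and DSP, plaque proteins of the desmosome, were at 29.3 ± 2.18 and 12.4 ± 1.16 FPKM, and TJP1, of the tight junction, at 3.70 ± 0.419. Keratins of stratified epithelium, KRT5 and KRT14, as well as KRT7, KRT19, GRHL2, ESRP1, OVOL1 and MUC1, were under 1 FPKM throughout. Of 21 fibroblast and mesenchymal genes, 9 were expressed (42.9%). VIM, the intermediate filament vimentin, was at 121, 151 and 156 FPKM and made up 73.9% of the list's summed level. CDH2, N-cadherin, was at 14, 12.6 and 9.75 FPKM and CDH1, E-cadherin, at 2.18, 2.13 and 1.2 FPKM, so that CDH2 was 5.91 to 8.16 times as high within a library. TWIST1 and SNAI2, repressors of epithelial genes, were at 10.9 ± 0.888 and 3.83 ± 0.129 FPKM, and COL1A1 at 7.99 ± 2.12, while its chain partner COL1A2 was listed at 0, as were FAP and THY1.

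Of 16 genes of pluripotency and the early embryo, 6 were expressed. UTF1, a chromatin factor of stem cells, was at 25.3, 31.4 and 29.5 FPKM, followed by LIN28B, which blocks let-7 maturation, at 13.4, 10.7 and 10.5, and DNMT3B, a de novo DNA methyltransferase, at 8.42 ± 0.737. TERT, the catalytic subunit of telomerase, was at 3.90 ± 0.450 FPKM and SOX2 at 3.30 ± 0.228. POU5F1 was at 0.539, 0.386 and 0.592 FPKM and NANOG was listed at 0. The LIN28 paralogs were unequal: LIN28A was at 0.0199 FPKM in library 2 and listed at 0 in the other libraries. Among the IGF2 mRNA-binding genes, IGF2BP1 at 25.3, 22.9 and 23.6 FPKM and IGF2BP2 at 16.2, 16.7 and 27.8 overlapped, and IGF2BP3 was below both at 2.50 ± 0.949. HMGA1, an architectural chromatin protein of proliferating and embryonic cells, was at 285 ± 37.1 FPKM. 

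Markers of other lineages were mostly below 1 FPKM, and each list had few exceptions. Of 16 hepatocyte genes 0 were expressed: AFP and SERPINA1 were listed at 0, and ALB, serum albumin, was at 0.0220 and 0.118 FPKM in libraries 1 and 2 and at 0 in library 3. Of 19 leukocyte genes CORO1A, an actin regulator, was the 1 expressed, at 3.32 ± 0.744 FPKM, and PTPRC, which encodes CD45, was at 0.00811 FPKM in library 1 and listed at 0 in the others. Among 14 endothelial genes, EGFL7, a secreted vascular protein, was at 46.9, 62.1 and 28.9 FPKM and SOX18 at 5.19 ± 0.735, whereas PECAM1, CDH5 and VWF did not reach 0.1 FPKM in any library. Among 16 muscle genes the exceptions were the transcription factors MYOD1, at 2.64, 3.50 and 2.65 FPKM, and PAX3, at 1.83, 1.71 and 2.44, and MYOG was listed at 0. Of 21 cancer-testis genes, PRAME was expressed, at 11.3, 10.5 and 9.16 FPKM, and 12 were listed at 0.

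**Figure D4:**
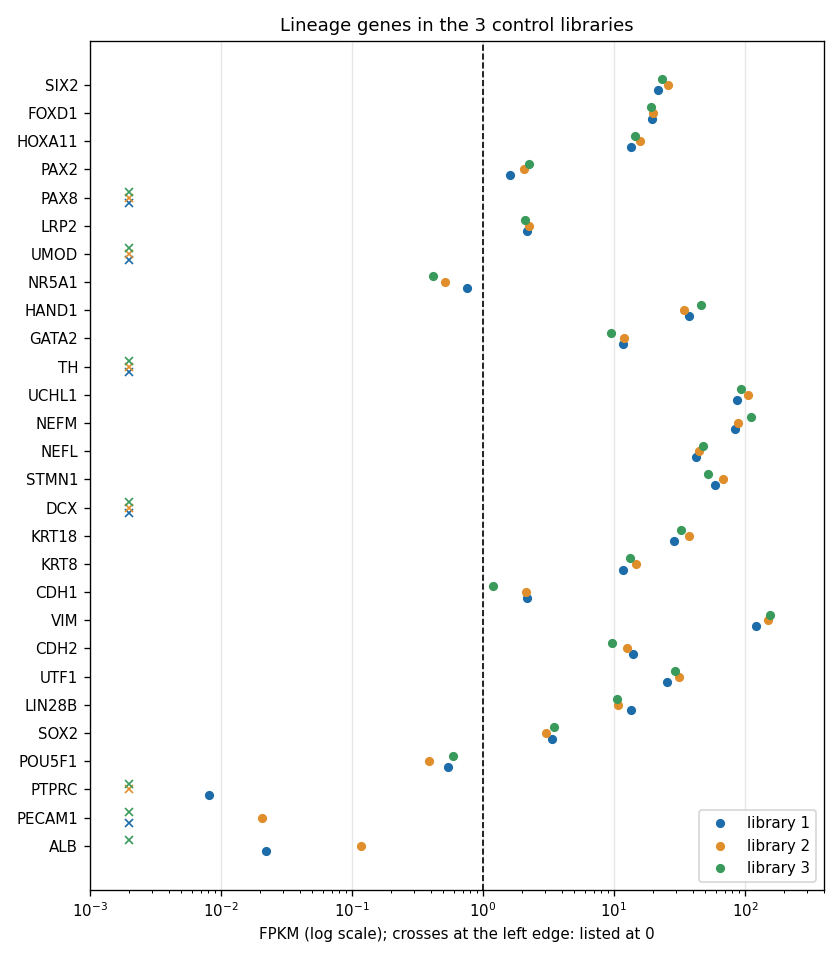
FPKM (log axis) of lineage genes, from kidney at the top to liver at the bottom; each point is 1 of the 3 control libraries, crosses at the left edge are values listed at 0 and the dashed line is 1 FPKM. SIX2, UCHL1, KRT18 and VIM lie above 20 FPKM in every library, whereas PAX8, TH and DCX are listed at 0.

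Of 1548 annotated transcription factors, 899 were expressed (58.1%), a share near the 54.1% of all protein-coding genes. By level the leading ones were YBX1, ATF4, JUN, HMGA1 and HES4. ATF4, of the amino acid response, was at 432, 515 and 482 FPKM, and JUN, an AP-1 subunit, at 433, 416 and 366 FPKM. HES4, a Notch effector, had a mean of 285 ± 38.4 FPKM, MYBL2, which drives mitotic genes, 185 ± 26.6, and XBP1, of the unfolded protein response, 127 ± 9.18. HOX genes, which encode position along the body axis, were expressed in 31 of 39 cases (median 6.77 FPKM). HOXB9 was the highest at 101, 109 and 98.4 FPKM, above every value of any other HOX gene. HOXA5, at 42.3 ± 0.731 FPKM, and HOXD13, at 40.3 ± 1.12, followed, each HOXA5 value lying just above each HOXD13 value. HOXA10, HOXD9 and HOXA9 were between 11.9 and 21.0 FPKM and overlapped. HOXB1, HOXC5, HOXD1, HOXD3, HOXD4 and HOXD12 were under 1 FPKM throughout.

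Other developmental families lay on both sides of the 54.1% of all protein-coding genes. Of 44 FOX genes, 28 were expressed (63.6%), led by FOXC1, a factor of mesoderm and neural crest, at 78.5, 64.9 and 69.3 FPKM. FOXF2 was at 22.2 ± 0.125 FPKM, almost the same in every library. SIX4 and SIX5, relatives of SIX2, were at 3.55 ± 0.525 and 3.89 ± 0.267 FPKM, and SIX3 and SIX6, factors of eye and forebrain, were not expressed. Of 9 PAX genes, only PAX2, PAX3 and PAX9 were expressed (33.3%), all below 3 FPKM. Of 6 GATA genes 5 were expressed (83.3%), with GATA4, GATA5, GATA6, GATA2 and GATA3 between 3.09 and 18.0 FPKM. The erythroid factor GATA1 was at 0.252 ± 0.214 FPKM. SOX genes were expressed in 9 of 19 cases (47.4%), POU genes in 6 of 15 (40%) and T-box genes in 6 of 16 (37.5%). ISL2 and TBX1, of motor neurons and the pharyngeal arches, were at 27.5 ± 1.67 and 25.8 ± 2.70 FPKM, and POU4F1, of sensory neurons, at 14.5, 9.59 and 13.8 FPKM.

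Of 59 receptor tyrosine kinases, 34 were expressed (57.6%, median 2.47 FPKM), a share near the 54.1% of all protein-coding genes. FGFR4 was at 25.8, 27.1 and 25 FPKM, above the kinase-lacking FGFRL1, at 23.2, 23.6 and 18.7, and FGFR3, at 16.3, 14 and 11.8, with no overlap among the 3 genes. FGFR1 and FGFR2 were lower, at 6.35 ± 0.526 and 3.55 ± 0.918 FPKM. EPHB4, an ephrin receptor, was at 21.9 ± 0.170 FPKM, PTK7, a Wnt coreceptor, at 17.9 ± 1.41, and FLT4, the VEGF-C receptor, at 14.6 ± 1.95. Receptors often stimulated in these cells were lower: INSR was at 4.2, 4.65 and 9.48 FPKM, ERBB2 at 5.42 ± 0.418, IGF1R at 5.37 ± 0.348, MET at 5.21 ± 0.628 and EGFR at 1.54, 1.68 and 1.58. PDGFRA, PDGFRB, CSF1R, KDR and ALK were among 21 under 1 FPKM in all libraries. 

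Frizzled, Smoothened and Wnt coreceptor genes were expressed in 18 of 22 cases, a higher share than for any other receptor list. FZD2 was at 18.4, 20.6 and 29.5 FPKM, SMO, the Hedgehog transducer of the same superfamily, at 21.1 ± 1.58, LRP5, a Wnt coreceptor, at 18.9 ± 0.933, and its paralog LRP6 at 3.32 ± 0.580. Wnt ligands were expressed in 10 of 19 cases, with WNT3A highest at 8.77, 9.78 and 12 FPKM. Of 14 receptors of the TGF-beta family, 9 were expressed, led by ACVR1B, a type I activin receptor, at 7.71 ± 0.212 FPKM, with TGFBR1 and TGFBR2 at 4.53 ± 1.01 and 2.20 ± 0.467. Of 48 nuclear receptors, 25 were expressed (median 1.86 FPKM). The orphan receptor NR2F6 was highest, at 53.2, 60.7 and 53.1 FPKM, above its relatives NR2F2, at 25.4 ± 2.05, and NR2F1, at 18.6 ± 0.901, with no overlap. The steroid receptors differed: NR3C1, which binds glucocorticoid, was at 2.92 ± 0.471 FPKM, and ESR1, which binds estrogen, at 0.0107 FPKM in library 1 and at 0 in the others.

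GPCRs were mostly below the threshold. Only 6 of 40 receptors for amines, acetylcholine and adenosine were expressed. ADRA2C, an adrenergic receptor coupled to Gi, was at 29.1, 32.7 and 33.1 FPKM and held 55.4% of that list's summed level. ADORA2B, an adenosine receptor, was at 7.71 ± 0.484 FPKM, and the dopamine receptor DRD4 and serotonin receptor HTR6 at 4.93 ± 1.32 and 4.31 ± 1.09. The beta-adrenergic receptor ADRB1 was at 0.616 ± 0.106 FPKM and was not called expressed. Of 35 receptors for lipids, nucleotides and proteases, 10 were expressed. The thrombin receptor F2R was at 11, 10.1 and 8.40 FPKM and overlapped with LPAR3, a lysophosphatidic acid receptor, at 9.0, 9.65 and 10.0. F2RL1, activated by trypsin, was at 7.56 ± 1.23 FPKM and the sphingosine phosphate receptor S1PR2 at 5.30 ± 0.228.

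Of 58 peptide hormone receptors 6 were expressed and 18 were listed at 0. PTH1R, for parathyroid hormone, was at 3.61, 4.11 and 4.65 FPKM, and the somatostatin receptor SSTR2 was at 1.73, 2.54 and 8.31, so that its leading place rested on library 3. Chemokine receptors were expressed in 2 of 22 cases, CXCR4 at 8.02, 7.0 and 5.10 FPKM and CCR10 at 1.53, 1.28 and 3.33. The sensory families were silent by the same rule, with 0 of 381 olfactory receptors and 0 of 27 taste receptors expressed. 

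Immune receptors fell into separate groups. Of 44 cytokine and interferon receptors, 22 were expressed, led by the interferon gamma chains IFNGR1 and IFNGR2, at 16.6 ± 1.43 and 16.5 ± 0.838 FPKM, which overlapped, and TNFRSF1A, the TNF receptor, at 14.7 ± 1.89. IFNAR1, a chain of the type I interferon receptor, was at 10.7 ± 0.421 FPKM, whereas its partner IFNAR2 was at 0.515, 0.519 and 0.711, with 83.2% of its exon bases shared with other genes. Of 24 Toll-like receptors and nucleic acid sensors, 4 were expressed: MAVS, an adaptor on mitochondria, at 11.5, 11.7 and 44.1 FPKM, the kinase EIF2AK2 at 5.28 ± 0.352, TICAM1 at 2.69 ± 0.377 and NOD1 at 1.45 ± 0.205. The value for MAVS in library 3 was far above the other libraries. CGAS and its effector STING, listed as TMEM173, were at 0.0358, 0 and 0 FPKM and at 0.269 ± 0.121, and DDX58, the RNA sensor RIG-I, at 0.837, 0.844 and 1.37. Of 21 interferon genes 0 were expressed, of 35 interleukins 3 and of 44 chemokines 1, CXCL16.

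Ion channels were mostly low, with a few exceptions. Of 64 ligand-gated channels, 13 were expressed, and the acid-sensing channel ASIC1, at 19.2, 21.9 and 22.1 FPKM, was well above CHRNA5, a nicotinic subunit, at 6.78 ± 0.883, and ASIC3, at 6.24 ± 0.719. Of 32 voltage-gated sodium and calcium channel genes 6 were expressed, with the T-type calcium channel CACNA1H at 14.8 ± 0.987 FPKM. Of 96 potassium channels, 18 were expressed, with the inward rectifiers KCNJ4 and KCNJ11 highest at 13.3 ± 1.49 and 11.5 ± 1.01. Of 24 receptors used by viruses, 18 were expressed. BSG, also called CD147, was at 242, 279 and 189 FPKM and the tetraspanin CD81 at 37.3 ± 7.96. The amino acid and phosphate transporters SLC7A1 and SLC20A1, which retroviruses bind, were at 33.5 ± 3.83 and 23.2 ± 1.06 FPKM. TMPRSS2, a protease that primes some viruses, was at 0.101 ± 0.0730 FPKM.

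Central metabolism was almost complete. Of 25 tricarboxylic acid cycle genes 24 were expressed (median 26.1 FPKM), with MDH2, malate dehydrogenase, highest at 172, 211 and 127 FPKM, and the 1 that was not, PDHA2, is the testis form of pyruvate dehydrogenase. All 24 genes of nucleotide synthesis were expressed (median 26.5 FPKM), led by IMPDH2, the committed step to guanine nucleotides, at 278, 359 and 324 FPKM. APRT and HPRT1, which salvage purines, were at 183 ± 65.5 and 131 ± 12 FPKM. Of 21 genes of serine, glycine and one-carbon metabolism, 18 were expressed, and the enzymes of serine synthesis were abundant: PSAT1 was at 299, 298 and 240 FPKM and PHGDH, the first enzyme, at 144, 177 and 153. SHMT2 and MTHFD2, their mitochondrial continuation, were at 127 ± 24.3 and 93.4 ± 11.4 FPKM. The pentose phosphate pathway was expressed in 8 of 9 genes, with TKT at 102 ± 9.21 FPKM.

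Glycolysis was expressed in 19 of 27 genes (median 19 FPKM), and within it 1 paralog usually prevailed. ENO1 was 22.1 to 26.8 times ENO2, the neuronal form, within a library. LDHA, at 141, 158 and 144 FPKM, was 3.83 to 4.45 times LDHB, at 36.1, 41.3 and 32.5, of which 33.4% of exon bases were shared with other genes. HK1 exceeded HK2, at 33.2 ± 1.80 against 10.9 ± 2.31 FPKM. PKM was at 137, 169 and 150 FPKM, while the liver form PKLR was listed at 0, which allows at most 0.0756 FPKM. The aldolases were an exception, since ALDOC, at 4.37, 5.05 and 3.39 FPKM, and ALDOA, at 2.47, 3.41 and 2.91, overlapped. ALDOA, with a mean of 2.93 ± 0.469 FPKM, was far below the enzymes before and after it in the pathway. It shared 53.5% of its exon bases with other genes. SLC16A1, which carries lactate, was at 55.9, 51.2 and 46.6 FPKM and held 59.1% of the list of hexose and lactate carriers. The glucose transporter SLC2A1 was at 7.48 ± 0.341 FPKM and SLC2A2, the liver and islet form, was listed at 0.

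In nitrogen metabolism, 12 of 15 genes for glutamine and aspartate were expressed. The glutamine carrier SLC1A5 was at 157, 179 and 136 FPKM and GLUL, glutamine synthetase, at 42.6 ± 1.40. Asparagine synthetase, ASNS, was at 5.12, 3.53 and 3.85 FPKM, with 44.6% of its exon bases shared. Lipid genes were nearly all expressed: 17 of 18 for fatty acid synthesis, led by FASN at 83.3, 75.6 and 82.9 FPKM and SCD at 66.1 ± 7.91, and 15 of 18 for fatty acid oxidation, led by ECHS1 with a mean of 139. Of 20 cholesterol synthesis genes 19 were expressed, with EBP at 37.2 ± 6.33 FPKM. The exception was CYP51A1, at 1.58, 0.646 and 0.354 FPKM, with 83.2% of its exon bases shared with other genes. Ferritin light chain, FTL, was at 700, 909 and 628 FPKM, against 161, 181 and 129 for the heavy chain FTH1, of which 62.4% of exon bases were shared.

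Genes of cytochrome P450 families 1 to 4, UDP glucuronosyltransferases and the urea cycle list were mostly not expressed. Of 25 cytochrome P450 genes of families 1 to 4, 5 were expressed and 9 listed at 0. CYP2R1, which hydroxylates vitamin D, was the highest, at 5.60, 6.37 and 10.7 FPKM, and CYP1A1 was at 1.60, 1.39 and 2.41. Of 19 UDP glucuronosyltransferases 0 were expressed. In the urea cycle and liver amino acid list, 5 of 13 were expressed, and ASS1, which makes argininosuccinate, was at 87.5, 106 and 63.2 FPKM and held 74.0% of the list's level, while OTC was listed at 0. Gluconeogenesis and glycogen genes were expressed in 9 of 15 cases (60%). PCK2, the mitochondrial form of phosphoenolpyruvate carboxykinase, was at 66.5, 74.4 and 56.3 FPKM and the cytosolic form PCK1 at 0.403, 0.480 and 0.361. Of 384 solute carrier genes, 188 were expressed, and after the ADP/ATP carriers and SLC1A5 the highest were SLC7A5, a leucine carrier, at 120 ± 15.0 FPKM, and SLC25A1, a citrate carrier, at 113 ± 25.6. Among ADP/ATP carriers SLC25A5 and SLC25A6 held 57.5% and 41.8% of the family's level, and the muscle form SLC25A4 held 0.695%.

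All 22 genes of the E2F and RB list were expressed, with a median of 11.2 FPKM. CDKN2A, which encodes the CDK inhibitor p16 and ARF, was the highest at 74.3, 88.6 and 64.9 FPKM. E2F1, which activates S phase genes, was at 60.5, 69.5 and 51.6 FPKM, and CDKN1A, the CDK inhibitor p21, at 29.6 ± 4.89. The RB family was at like levels, RB1 at 7.90 ± 0.904 FPKM, RBL2 at 6.10 ± 1.27 and RBL1 at 6.07 ± 0.685. RBL2 overlapped with both, and every RB1 value was above every RBL1 value. The D cyclins CCND2, CCND3 and CCND1 were at 14.3 ± 1.59, 13.3 ± 2.57 and 9.69 ± 0.683 FPKM. CCND2 exceeded CCND1 in every library, whereas CCND2 and CCND3 overlapped.

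The cytoskeleton and chaperones also favoured particular paralogs. ACTG1 exceeded ACTB, the other cytoplasmic actin, by 4.59 to 4.70 times within a library, at 1379, 1543 and 1267 against 301, 328 and 275 FPKM. Of beta tubulins, TUBB held 64.1% of the family's level, TUBB4B 25.2% and TUBB2B 5.18%. HSP90AB1, the constitutive cytosolic HSP90, was at 692, 736 and 701 FPKM, above the stress-inducible HSP90AA1 at 211, 225 and 320. TMSB10, a thymosin that sequesters actin monomers, was at 382, 441 and 143 FPKM, far above the next thymosin, TMSB15A, at 13.6 ± 5.94, and TMSB4X, its abundant paralog in many tissues, was at 9.06 ± 1.70. EEF1A1 was 12.3 to 15.3 times EEF1A2, the form of neurons and muscle, which was itself at 180 ± 32.9 FPKM. Reads of such near-identical paralogs can be shared out wrongly by the counting, so their ratios are uncertain.

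Constitutive complexes were largely complete, with a few low members. Of 78 mitochondrial ribosomal proteins 76 were expressed, of 39 complex I subunits 36, of 49 proteasome genes 41 and of 9 CCT chaperonin genes 8. Among the proteasome genes that were not, PSMB8 and PSMB9, subunits of the immunoproteasome, were at 0.0248, 0.0533 and 0 and at 0.266, 0.468 and 0 FPKM, and PSMB11, of the thymus, was listed at 0. PSMA2 and PSMA6, core subunits of every proteasome, were however at 0.710 ± 0.228 and 0.365 ± 0.0651 FPKM. Exon sharing was 34.6% and 14.1% for these genes, and 0 for PSMD5, at 0.151, 0.162 and 0.151. The cause of such low values was not tested.

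Of non-coding classes, 356 of 5583 antisense genes, 277 of 7629 lincRNAs and 56 of 600 processed transcripts were expressed. The most abundant processed transcripts were LRRC75A-AS1, at 93.1 ± 17.7 FPKM, and the small nucleolar RNA hosts GAS5, at 106, 106 and 64.7 FPKM, and SNHG1, at 79.8 ± 6.45. DANCR was at 49.8 ± 9.83 FPKM and NORAD, a lincRNA that binds Pumilio proteins, at 39.3, 30.6 and 32.7. Of 10191 processed pseudogenes 314 were expressed, and their leading members were copies of ribosomal protein genes: RPS2P5 was at 2599, 2817 and 1364 FPKM and RPL39P3 at 2286, 2727 and 1763. MTATP6P1, a nuclear copy of a mitochondrial gene on chr1, was at 689, 803 and 525 FPKM. Reads of these copies cannot be told apart with certainty from those of their parent genes. Small RNAs were rarely above the threshold (22 of 1879 miRNA genes, 21 of 1909 snRNAs), and at their lengths a few fragments suffice to pass it.

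Promoter sequence was compared with level as a property that the choice of samples did not use. RefSeq windows of 300 bases, from 250 before to 50 after the gene's start (GRCh38.p14), were matched by symbol for 15321 of the 19951 protein-coding genes. The sequences of 7 are shown, because they run from EEF1A1, the most abundant protein-coding gene outside ribosomal proteins and the mitochondrial chromosome, to genes listed at 0, and include a pair of paralogs and a pair of neuronal genes that differ in level. Capitals mark CG dinucleotides. EEF1A1 (chr6:73520983-73521282, minus strand) held 24 and SIX2 (chr2:45009403-45009702, minus strand) 29. For the pyruvate kinases, PKM (chr15:72231141-72231440, minus strand) held 34 and PKLR (chr1:155301389-155301688, minus strand) 4. For the neuronal genes, UCHL1 (chr4:41256678-41256977, plus strand) held 25 and DCX (chrX:111412143-111412442, minus strand) 2. ALB (chr4:73404037-73404336, plus strand) held 4.
EEF1A1: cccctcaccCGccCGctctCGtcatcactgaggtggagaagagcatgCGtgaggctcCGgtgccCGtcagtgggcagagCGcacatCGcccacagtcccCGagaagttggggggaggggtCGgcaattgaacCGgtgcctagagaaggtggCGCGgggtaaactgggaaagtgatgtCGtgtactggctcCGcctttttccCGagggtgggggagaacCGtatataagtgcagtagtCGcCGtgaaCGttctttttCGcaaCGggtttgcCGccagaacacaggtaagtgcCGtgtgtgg
SIX2: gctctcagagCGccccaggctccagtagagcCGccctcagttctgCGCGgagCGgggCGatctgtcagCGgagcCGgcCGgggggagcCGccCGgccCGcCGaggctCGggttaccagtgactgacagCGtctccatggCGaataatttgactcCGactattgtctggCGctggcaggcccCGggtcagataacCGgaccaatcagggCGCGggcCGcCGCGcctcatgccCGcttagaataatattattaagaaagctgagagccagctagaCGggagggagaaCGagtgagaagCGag
PKM: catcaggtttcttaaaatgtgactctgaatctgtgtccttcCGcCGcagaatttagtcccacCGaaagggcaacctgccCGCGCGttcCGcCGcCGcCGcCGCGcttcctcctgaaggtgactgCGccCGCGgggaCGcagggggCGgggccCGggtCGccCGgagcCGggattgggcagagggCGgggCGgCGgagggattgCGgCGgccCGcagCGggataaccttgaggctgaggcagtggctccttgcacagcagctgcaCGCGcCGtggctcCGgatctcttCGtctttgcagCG
PKLR: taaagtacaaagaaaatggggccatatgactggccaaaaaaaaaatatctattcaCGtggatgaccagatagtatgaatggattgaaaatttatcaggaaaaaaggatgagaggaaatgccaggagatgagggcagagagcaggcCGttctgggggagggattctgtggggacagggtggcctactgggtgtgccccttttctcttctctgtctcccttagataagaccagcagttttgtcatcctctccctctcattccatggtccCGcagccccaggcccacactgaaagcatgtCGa
UCHL1: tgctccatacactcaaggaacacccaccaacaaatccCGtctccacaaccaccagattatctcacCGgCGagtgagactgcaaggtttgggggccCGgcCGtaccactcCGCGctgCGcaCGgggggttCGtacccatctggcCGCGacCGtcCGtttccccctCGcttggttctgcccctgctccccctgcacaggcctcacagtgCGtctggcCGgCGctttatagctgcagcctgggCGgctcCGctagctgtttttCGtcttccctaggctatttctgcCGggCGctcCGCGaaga
DCX: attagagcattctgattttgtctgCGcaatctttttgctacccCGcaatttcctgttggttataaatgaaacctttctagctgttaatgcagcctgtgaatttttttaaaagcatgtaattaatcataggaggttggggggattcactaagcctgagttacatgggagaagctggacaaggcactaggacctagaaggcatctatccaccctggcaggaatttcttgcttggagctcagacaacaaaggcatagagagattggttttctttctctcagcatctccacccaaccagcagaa
ALB: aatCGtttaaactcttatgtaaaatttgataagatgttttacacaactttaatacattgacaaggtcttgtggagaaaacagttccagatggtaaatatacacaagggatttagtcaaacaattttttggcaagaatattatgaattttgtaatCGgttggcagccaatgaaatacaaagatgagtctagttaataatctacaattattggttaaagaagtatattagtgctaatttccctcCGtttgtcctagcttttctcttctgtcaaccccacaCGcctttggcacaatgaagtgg

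Windows of expressed genes were richer in CG than those of genes under 1 FPKM. Over the 8827 expressed genes the median was 27 CG per window, and over 5763 genes under 1 FPKM in all 3 libraries it was 7, beside 22 over all windows. Fewer than 10 CG were found in 7.38% of windows of expressed genes and in 56.1% of windows of genes under 1 FPKM. Read the other way, 11.4% of 2496 genes with fewer than 5 CG were expressed, 54.7% of 2593 with 10 to 19, and 80.1% of 4686 with 30 or more. Among expressed genes the count hardly changed with level: the median was 28 for genes at 10 FPKM or more and 27 for the 221 at 100 FPKM or more. The motif TATAAA on the gene's strand, starting 40 to 20 bases before the start, was found in 1.35% of windows of expressed genes, 7.25% of those under 1 FPKM and 6.79% of those at 100 FPKM or more, beside 3.67% of all windows. A match is a description of these letters only. The pattern was not uniform across lists: in the early kidney list the median was 21 CG for the 11 expressed genes with a window and 22.5 for the 4 under 1 FPKM, and in differentiated kidney segments it was 23 for 3 and 4 for 14.

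**Figure D5:**
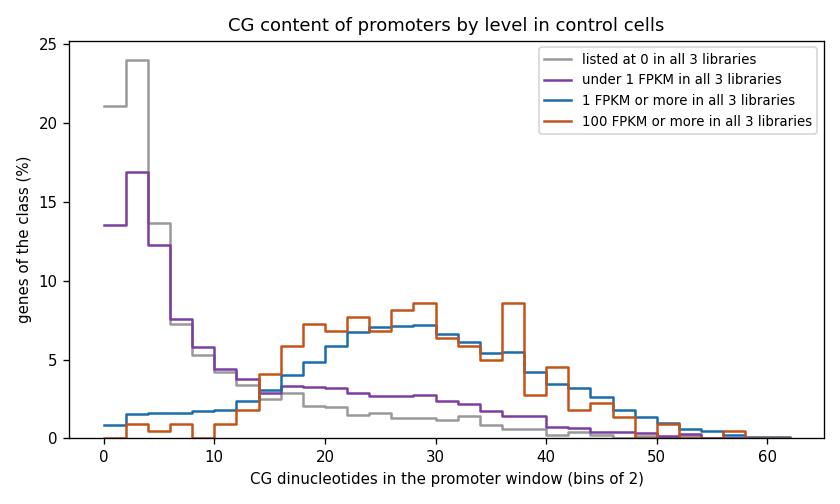
Distribution of CG dinucleotides per RefSeq promoter window (horizontal axis, bins of 2; vertical axis, percent of the genes in a class) for protein-coding genes listed at 0, under 1 FPKM, at 1 FPKM or more, and at 100 FPKM or more in all 3 control libraries. Genes listed at 0 peak at few CG, with a median of 4, and expressed genes spread around a median of 27.

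Differences between the libraries touched named genes. Of 7664 genes with a mean of 5 FPKM or more, 147 were over 3-fold higher and 19 over 3-fold lower in library 3 than in both others, against 1 and 23 for library 1 and 2 and 7 for library 2. Of the 147, 52 were protein-coding, and the median length of the 147 was 645 bases. EIF5B, which joins ribosomal subunits, was at 57.4, 76.6 and 430 FPKM, CCDC85C at 3.51, 3.62 and 22.5 and ANKRD18B at 5.29, 9.87 and 60.2. The 10 largest folds were mostly in short RNAs such as RNU6-817P, at 0, 0.768 and 24.4 FPKM, and in pseudogenes such as RPS26P45, at 0.656, 0.705 and 16.0. Abundant short transcripts were lower in library 3: for expressed protein-coding genes averaging at least 30 FPKM, the median log2 ratio of library 3 to the mean of libraries 1 and 2 was -0.64 for 45 genes of up to 1000 bases and -0.08 for 541 genes over 4000 bases. Libraries 1 and 2 also differed by length, with a median log2 ratio of library 1 to library 2 of -0.26 and -0.09 for the same genes. Library 3 also had a higher share of FPKM from mitochondrial ribosomal RNA, 7.32% against 4.60% and 5.15%. The part of these differences in the results for MAVS, GATA3, SSTR2 and TMSB10 was not tested.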

How the data were processed

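RNA-seq of 3 empty-vector HEK293T control libraries was analysed from 1 table of FPKM that the authors deposited, with gene length, position and biotype for each gene as other deposited annotation. The sources used here do not name the aligner or the counting tool. Libraries were made with a SMARTER mRNA kit and sequenced as paired ends. Genome builds named in the submitters' processing notes are the mouse builds GRCm38 and mm10, but all 58735 genes had the human start, end and merged exon length of GENCODE 29 (GRCh38). The divisor behind the FPKM is unknown, and whether strand was used in counting is not stated.

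Genes were called expressed at 1 FPKM or more in each of 3 libraries. Whole fragments were recovered from FPKM times gene length (100% of values up to 20 fragments lay within 0.05 of a whole number), a step tested on simulated data. Groups were not compared and no test was run, so means ± SD (n = 3), ranges and counts are given. Neighbours in level are called different only where their 3 values do not overlap. Symbols that had turned into dates were restored for 12 genes by identifier. Named genes were the 25 most abundant protein-coding genes outside ribosomal proteins and the mitochondrial chromosome, the leading 5 of each biotype with 20 or more expressed genes, up to 6 leading members of each list and family, silent lineage and receptor members, and the 10 genes with the largest fold in 1 library; where more are named, they were chosen after their values were seen, and some are left out for length. Members and lists were chosen with earlier results of these data known. Alternatives changed the FPKM minimum, TPM in place of FPKM, the denominator and the libraries used. Python 3.11.15, pandas 2.3.3, numpy 2.4.6 and matplotlib 3.10.9 were used. Results for some genes are not reported here.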

Additional observations from a re-analysis of the deposited data

How the results depend on the processing

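Counts depended most on the minimum level. At 5 FPKM in each library 6926 genes, 6530 protein-coding genes, 58 lincRNAs, 149 processed pseudogenes and 335 list members passed. At 0.5 FPKM 421 lincRNAs passed, by a mean of 1 FPKM 470, and by a TPM of 1 479. Leaving out each library in turn gave 12538 to 12769 genes, 10874 to 11008 protein-coding genes, 314 to 358 lincRNAs, 335 to 358 processed pseudogenes and 535 to 543 list members. As a share of fragments instead of FPKM, protein-coding genes came to 94.7%, the mitochondrial chromosome to 11.1% and the 100 most abundant genes to 25.6%. Without the mitochondrial chromosome, protein-coding genes held 89.4%, the 100 most abundant genes 23.3% and ribosomal protein genes 14.4%. Chosen after seeing the data, leaving out genes with over 50% of exon bases shared gave 10674 protein-coding genes and 525 list members, and the count of genes over 3-fold apart in library 3 was 193 by TPM and 60 for protein-coding genes only, against 166. TPM were 2.46 to 2.56 times FPKM. No paired analysis was possible because no groups were compared, so replicate numbers had nothing to pair. Leaving the mitochondrial chromosome out gives no value for its own share.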
